A study of Homo sapiens with 4 samples.

Results

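The inhibitor of DNA binding (ID) proteins and the E proteins are opposing arms of 1 transcription factor network, and their genes were followed across 4 arrays of a lymphoma line and its cytokine-resistant derivative. The members were all 12 probes whose gene symbol was ID1, ID2, ID3, ID4, TCF3, TCF4 or TCF12, of 31095 probes in the deposited table. All 7 genes had at least 1 probe with a value on all 4 arrays, out of 13446 genes for which this held. The samples were RC-K8, an established line from diffuse large B-cell lymphoma that undergoes apoptosis with interleukin-21 (IL-21), and RC-K8-R, derived from it by exposure to rising IL-21 doses over 10 weeks. Both lines grew in the same medium with serum, and each gave an untreated sample and one exposed for 6 h to IL-21 (100 ng/mL), with 1 array per sample. RC-K8-R is a single selected derivative, and nothing in the labels says whether it is 1 clone. RNA from the cells carried the dye Cy5 and a common human reference RNA the dye Cy3, so each value is a log ratio of the cells to that reference.

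E proteins are basic helix-loop-helix transcription factors that bind E-box sequences in DNA as dimers, through a basic region next to the helix-loop-helix. TCF3 (also called E2A), TCF4 (E2-2) and TCF12 (HEB) encode them, and in mouse they are needed for commitment to and maturation along the B cell lineage. ID proteins have the helix-loop-helix but lack the basic region, so that a dimer of an ID protein and an E protein does not bind DNA. TCF4 here is the E protein gene (Entrez 6925) and not TCF7L2, the Wnt pathway gene that shares the older name, and TCF3 (Entrez 6929) is likewise not TCF7L1.

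The promoter sequences of the 3 members with the largest IL-21 difference in RC-K8 (TCF3, ID2 and TCF12, described below) are given to show which E-boxes stand before genes that themselves belong to the E-box network. They are the 250 bases before the annotated gene start, 5′ to 3′ on the gene's strand, from RefSeq on build GRCh38.p14, with matches to the E-box CANNTG in capitals. The TCF3 window lies at chr19:1652616-1652865 on the minus strand, the TCF12 window at chr15:56917840-56918089 on the plus strand and the ID2 window at chr2:8681806-8682055 on the plus strand.
TCF3: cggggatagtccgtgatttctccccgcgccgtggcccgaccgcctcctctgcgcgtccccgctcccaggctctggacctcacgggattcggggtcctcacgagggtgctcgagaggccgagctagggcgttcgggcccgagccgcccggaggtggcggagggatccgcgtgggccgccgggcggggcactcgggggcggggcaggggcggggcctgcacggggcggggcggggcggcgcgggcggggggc
TCF12: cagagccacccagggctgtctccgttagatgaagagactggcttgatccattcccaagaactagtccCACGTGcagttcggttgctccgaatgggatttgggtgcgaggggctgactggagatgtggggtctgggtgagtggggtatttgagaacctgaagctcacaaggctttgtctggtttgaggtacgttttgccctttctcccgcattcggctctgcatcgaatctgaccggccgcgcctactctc
ID2: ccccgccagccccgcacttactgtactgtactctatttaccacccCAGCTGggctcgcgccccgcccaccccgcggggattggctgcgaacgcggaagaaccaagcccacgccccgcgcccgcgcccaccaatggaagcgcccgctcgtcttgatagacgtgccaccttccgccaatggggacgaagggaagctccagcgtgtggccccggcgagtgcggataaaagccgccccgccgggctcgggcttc
TCF3 has no match in its window, TCF12 has CACGTG, the E-box also bound by MYC, starting 183 bases before the gene start, and ID2 has CAGCTG 205 bases before it. At least 1 CANNTG stands in 61.8% of 34788 distinct promoter windows of that length and CACGTG in 6.31% of them. The search read both strands, and every CACGTG is also a CANNTG. The STAT-type motif TTCNNNGAA, present in 6.57% of windows, matched none of these 3 windows. Among the gene-start windows of the other members it matched that of ID3 alone, as TTCTTTGAA, starting 181 bases before the gene start. TCF12 has 5 annotated windows and TCF4 has 10, and the other members have 1 each. A match or its absence in these letters describes the sequence only.

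The arrays held values for 25246 to 26555 probes each. Values below are log2 ratios to the reference after each array's median over the 23260 probes measured on all arrays was subtracted. B cell markers had median log2 ratios between 0.95 and 2.13 and markers of T and NK cells, epithelial cells and fibroblasts medians between -1.23 and -4.97, with B cell markers above the others; myeloid markers lay between -0.58 and 0.28. The spread of the log2 ratios over probes was wider on the RC-K8-R arrays (SD up to 1.54) than on those of RC-K8 (SD up to 1.30). With 1 array per group there is no estimate of the spread between cultures, so no test between groups was possible and no p-value is given. A difference of 1 or more on the log2 scale, which is 2-fold, is called a difference here. For genes with 2 or more probes the SD between probes is given. It measures how far probes on the same arrays disagree, and not the error between arrays or cultures. Its median over 4379 such genes was 0.16 for IL-21 in RC-K8, 0.12 for IL-21 in RC-K8-R and 0.31 for both comparisons of the lines.

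TCF3 was the member that differed most. Its RNA was 2.10-fold lower with IL-21 in RC-K8, while treated RC-K8-R stood at 1.03 times its untreated value, a difference within the spread between probes, and after IL-21 it was 2.99-fold higher in RC-K8-R than in RC-K8. The first TCF3 probe had log2 ratios of 1.30 in untreated and 0.46 in treated RC-K8, and of 1.84 in untreated and 1.93 in treated RC-K8-R. The other TCF3 probe had 1.93 and 0.63 in RC-K8, and 2.32 on both RC-K8-R arrays. On both probes treated RC-K8 was the lowest of the 4 arrays, and the RC-K8-R arrays lay above both arrays of RC-K8.

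**Figure D1:**
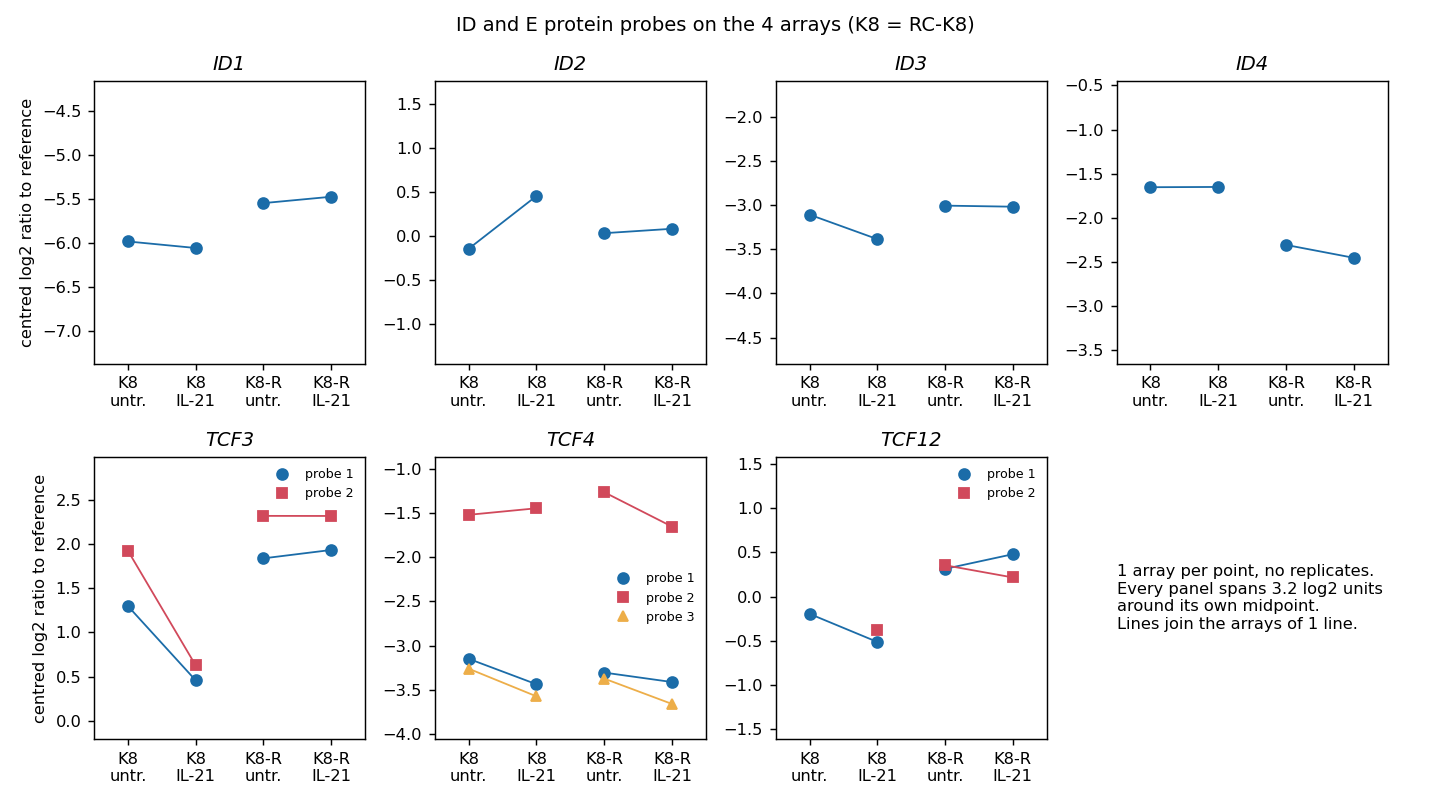
Centred log2 ratio to the reference (vertical axis) of every member probe with a value, on the 4 arrays (horizontal axis; K8 is RC-K8), 1 point per array and no replicates. Both TCF3 probes drop in treated RC-K8, from 1.30 to 0.46 and from 1.93 to 0.63, while ID2 goes from -0.14 to 0.45 there; levels of different probes are not comparable.

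In RC-K8, IL-21 gave TCF3 a log2 difference of -1.07 (SD between its 2 probes 0.32, from -1.30 and -0.84). It ranked 187th from the lowest of 13446 genes, and 2.56% of genes had a larger difference in either direction. TCF3 was 1 of 7 members at 2-fold lower, a difference reached by 1.66% of all genes, and 0 members were 2-fold higher, against 1.44% of all genes. The smaller of the probe values, -0.84, did not reach 2-fold on its own.

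ID2, the ID protein that in mouse restrains E proteins in lymphoid progenitors and natural killer cells, was the member furthest in the other direction. Its log2 ratio was -0.14 in untreated and 0.45 in treated RC-K8, and 0.03 and 0.08 in RC-K8-R. Treated RC-K8 was thus the highest of the 4 arrays for ID2 and the lowest for TCF3. The ID2 difference with IL-21 in RC-K8 was 0.60, or 1.51-fold, on 1 probe, short of 2-fold, with 11.2% of genes at a larger difference. A further ID2 probe was blank on all 4 arrays. With IL-21 in RC-K8, ID2 and TCF3 had the highest and the lowest log2 difference of the 7 members, 1.67 apart. In RC-K8-R their differences lay 0.003 apart. Because these 2 are the extremes of the RC-K8 values, nothing is read from the smaller gap in RC-K8-R.

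The remaining members stayed within 0.32 of 0 with IL-21 in RC-K8. TCF12, whose product pairs with TCF3 and other helix-loop-helix proteins, had log2 ratios of -0.20 untreated and -0.51 treated, a difference of -0.32 on 1 probe. For TCF4, the E protein best known from plasmacytoid dendritic cells, the 3 probes gave differences of -0.29, 0.07 and -0.31, so that no direction is read from them. ID3, an inhibitor of TCF3 in germinal centre B cells, differed by -0.28. ID1, a target of bone morphogenetic protein (BMP) signalling, differed by -0.07 and ID4 by 0.00. Over the 7 members the median difference was -0.28 and the median size 0.29, against -0.04 and 0.21 over all genes.

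**Figure D2:**
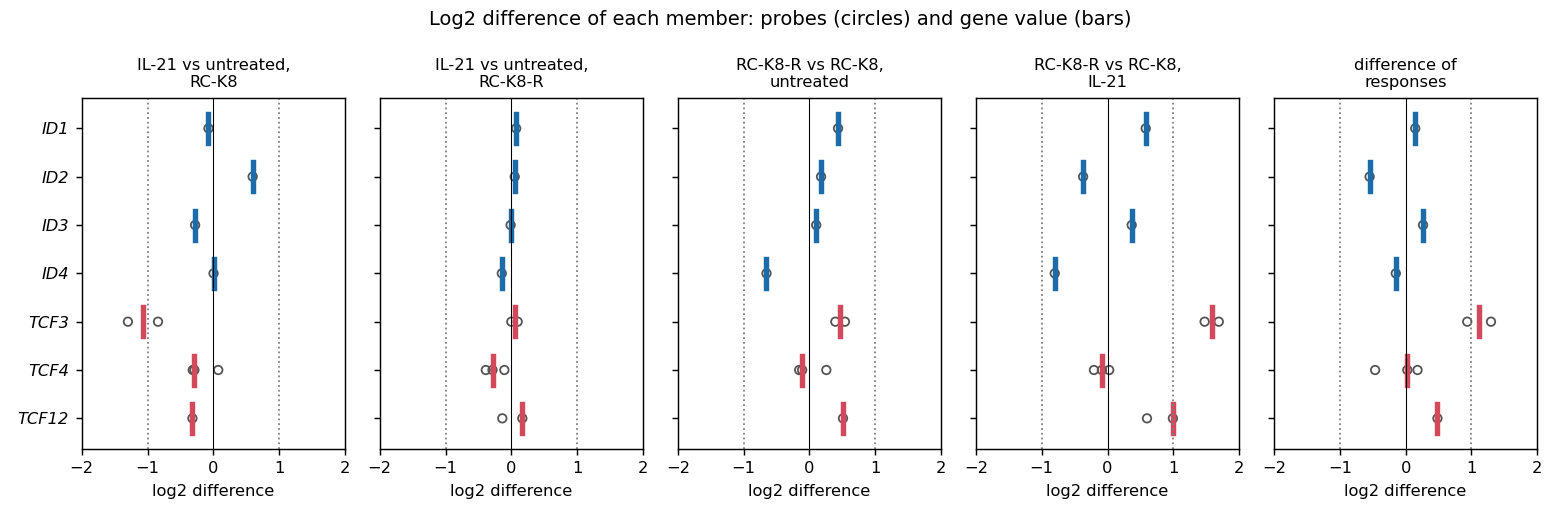
Log2 difference (horizontal axis) of each member in the 4 comparisons and in the difference of responses, with circles for single probes and bars for the gene value, the median of probes measured on all arrays (blue ID genes, red E protein genes). Dotted lines mark 2-fold, which the TCF3 bar passes at -1.07 for IL-21 in RC-K8, at 1.58 between treated lines and at 1.12 in the difference of responses.

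In RC-K8-R, none of the 7 members reached 2-fold with IL-21, where 0.945% of all genes did. TCF3 differed by 0.05 (SD between probes 0.07) and ID2 by 0.05. The largest member difference was that of TCF4, -0.29 (SD between probes 0.14), with all 3 probes below 0 at -0.11, -0.39 and -0.29. ID3 differed by -0.01, ID1 by 0.07 and ID4 by -0.15. TCF12 gave 0.17 on the probe measured on all arrays and -0.14 on its other probe, which was blank on untreated RC-K8, so its direction is not settled. The median size over the members was 0.07, against 0.11 over all genes.

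Subtracting the RC-K8 response from that of RC-K8-R gave 1.12 for TCF3 (SD between probes 0.26, from 0.94 and 1.30), a value that 3.46% of genes exceeded in size. It was 0.48 for TCF12 and -0.55 for ID2, both below 2-fold. The 4 other members had values of 0.15 for ID1, 0.26 for ID3, -0.15 for ID4 and 0.03 for TCF4. Over all genes, 4.77% reached 2-fold in this difference, and 1 of 7 members did.

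Before treatment, the lines differed at 2-fold for 0 of 7 members, against 13.5% of all genes. ID4, the ID protein studied mainly in neural and glial precursors, had a log2 ratio of -1.65 in untreated RC-K8 and -2.31 in untreated RC-K8-R, a difference of -0.65 on 1 probe. The E protein genes TCF12 and TCF3 were higher in RC-K8-R, by 0.51 on 1 probe and by 0.47 (SD between probes 0.10), and 40.1% and 43.8% of genes had larger differences. The TCF3 value was 0.03 after quantile normalization and 0.04 after a loess correction for level, so the difference between untreated lines rests on the scaling of the arrays. ID2 differed by 0.18, ID3 by 0.10 and TCF4 by -0.11 (probes at -0.16, 0.26 and -0.11).

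For ID1 the log2 ratio was -5.98 and -6.06 in RC-K8 and -5.55 and -5.48 in RC-K8-R, without and with IL-21, on 1 probe. These gave line differences of 0.43 untreated and 0.58 treated. Under each of 3 settings that change the spread of the arrays (quantile normalization, equal median absolute deviation and loess), the line differences of ID1 passed 2-fold, at 1.16, 1.24 and 1.36 untreated and at 1.34, 1.36 and 1.36 treated. Among genes with a mean log2 ratio below -2, 36.6% differed at 2-fold between untreated lines and 11.3% of the other genes did. ID1, ID3, ID4 and TCF4 all have a mean below -2.

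After IL-21, TCF3 was 1.58 higher in RC-K8-R than in RC-K8 on the log2 scale (SD between probes 0.15, from 1.48 and 1.69), and 254 genes were higher than it. TCF12 lay at the edge of the call, 0.99 higher or 1.99-fold, from -0.51 (RC-K8) and 0.48 (RC-K8-R); its other probe gave 0.60, from -0.38 and 0.22. ID4 was lower by 0.80, from -1.65 and -2.45, and ID2 lower by 0.37. ID3 was 0.37 higher and TCF4 differed by -0.09, with probes at 0.03, -0.21 and -0.09. TCF3 was the 1 member at 2-fold higher, against 7.47% of all genes, and 0 members were 2-fold lower, against 10.3%. This comparison shares the treated RC-K8 array with the IL-21 comparison in RC-K8, so the TCF3 values of the 2 comparisons are not separate observations.

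**Figure D3:**
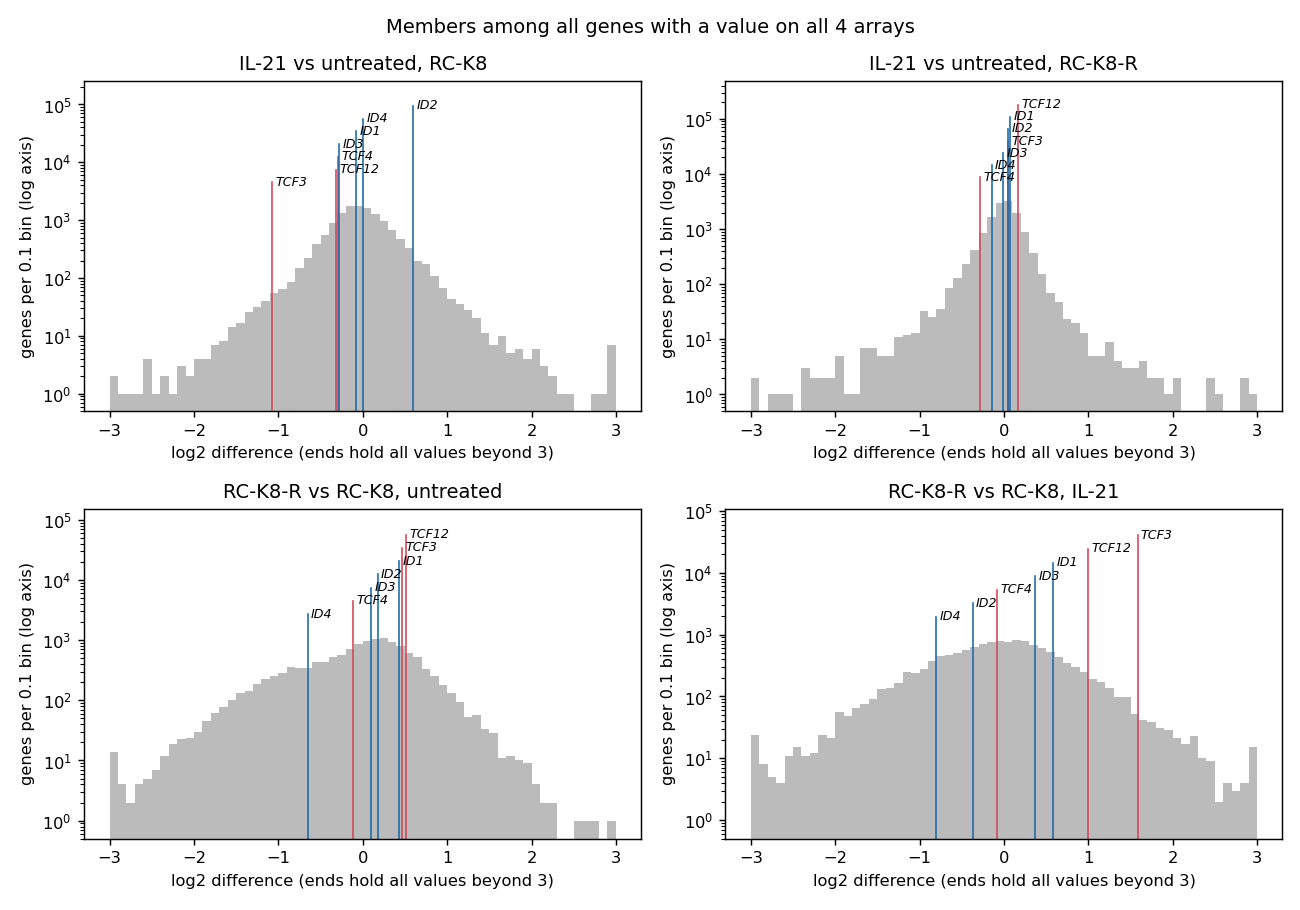
Number of genes per 0.1 bin (vertical axis, log scale) against the log2 difference (horizontal axis) for the 13446 genes measured on all arrays, in the 4 comparisons, with the members marked (blue ID genes, red E protein genes, line heights arbitrary). TCF3 stands in the lower tail for IL-21 in RC-K8 (-1.07) and in the upper tail between treated lines (1.58). For IL-21 in RC-K8-R no member reaches 2-fold, where 0.945% of all genes do. TCF4 lies furthest from 0 there (-0.29), with 14.5% of genes at a larger difference.

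TCF3 was the 1 member whose gene value ranged over 1 or more log2 units across the arrays (1.58, against 0.29 to 0.99 for the rest). The 3 genes with the most similar pattern, by Euclidean distance over the 4 arrays after each gene's own mean was removed, were FOXP1, DLG3 and CHMP4B. FOXP1, a forkhead transcription factor of B cells, lay at a distance of 0.044 log2 units, with differences of -1.05 and 0.01 for IL-21 in the sensitive and the resistant line and of 0.45 and 1.52 between untreated and treated lines. DLG3, a scaffold protein gene, lay at 0.046 and CHMP4B, a component of the membrane-remodelling ESCRT machinery, at 0.059. The likeness covers 4 arrays and 13445 other genes.

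Genes known as targets of E proteins in B cells, largely from work in mouse, were also read, from a list of 26 of which 17 were measured on all arrays. With IL-21 in RC-K8, 2 of the 17 were 2-fold lower and 1 was 2-fold higher, where 1.66% and 1.44% of all genes were. Of the 17, 11 lay below 0, and the median was -0.29 against -0.04 over all genes. CD79B, the signalling chain of the B cell receptor, went from 4.72 to 2.18, a difference of -2.54. IGLL1, a surrogate light chain gene, had a difference of -2.13, with probes at -2.25 and -2.13 but also at 0.21, and the last of these was the one with the highest ratio. POU2AF1, a coactivator of octamer-binding factors, went the other way, from 0.65 to 1.93. The mean log2 ratio of IGLL1 was -2.64. Among genes with a mean below -2, 7.06% reached 2-fold with IL-21 in RC-K8, against 2.72% of the other genes.

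In RC-K8-R 0 of the 17 reached 2-fold with IL-21, where 0.945% of all genes did, and the median of the 17 was 0.01. Between treated lines 8 of the 17 were 2-fold higher in RC-K8-R and 2 were lower, with a median of 0.63 against -0.03 over all genes, where 7.47% were 2-fold higher and 10.3% lower. The 8 were CD79B (3.82), IGLL1 (2.28), the B lineage factor PAX5 (2.26), the ETS factor SPIB (1.72), the corepressor TLE3 (1.68), IRF4 (1.37), FOXO1 (1.26) and the B cell receptor chain CD79A (1.02), and the 2 lower ones were EBF1 (-1.21) and VPREB1 (-1.13). The IGLL1 probes gave 2.43 and 2.28 but also -0.045, the last on the probe with the highest ratio. PAX5, SPIB and TLE3 were already 2-fold higher in untreated RC-K8-R, at 1.27, 1.22 and 1.05, and VPREB1 2-fold lower there, at -1.16. Of 13446 genes, 450 were 2-fold higher and 1368 lower between untreated lines. The cell cycle genes CCND3 and E2F2, which TCF3 activates in Burkitt lymphoma, had differences of 0.39 and 0.08 between treated lines. After the loess correction 5 of the 17 were 2-fold higher between treated lines and 0 between untreated lines. Over all 13446 genes, 916 and 404 were 2-fold higher in these comparisons under that correction.

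**Figure D4:**
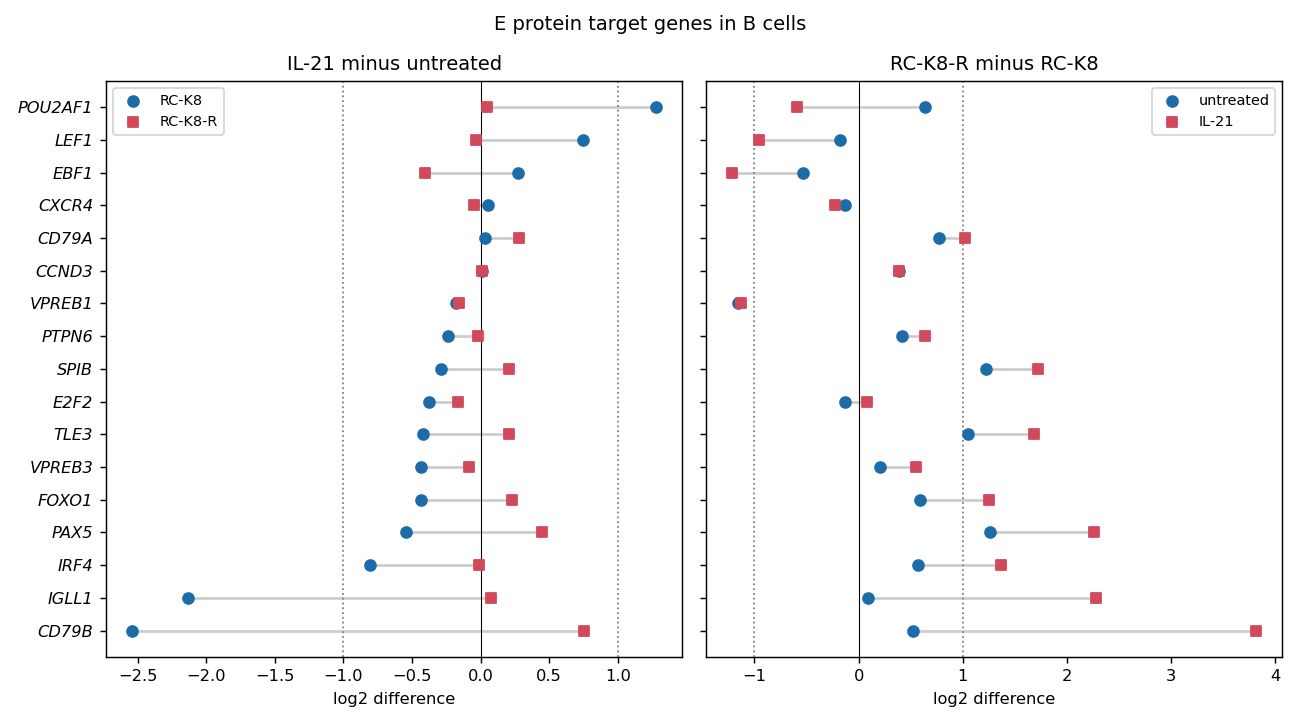
Log2 differences (horizontal axes) of the 17 measured E protein target genes, for IL-21 in each line (left) and between the lines, untreated and treated (right), with dotted lines at 2-fold. CD79B (-2.54) and IGLL1 (-2.13) are lower and POU2AF1 (1.28) is higher with IL-21 in RC-K8. None of the 17 passes 2-fold with IL-21 in RC-K8-R, where 0.945% of all genes do.

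B cell markers were read beside TCF3. Of 7 measured, 2 were 2-fold lower with IL-21 in RC-K8 (CD79B and the kinase gene BTK, the latter at -1.51) and POU2AF1 was 2-fold higher (1.28). Over all genes 1.66% were lower and 1.44% higher. CD79A was at 0.03 and the list median was -0.75. BTK had a mean log2 ratio of -2.56. With IL-21 in RC-K8, 7.06% of genes with a mean below -2 reached 2-fold, against 2.72% of the other genes. Between untreated lines 3 of the 7 were already 2-fold higher in RC-K8-R, MS4A1 (1.48), PAX5 (1.27) and BLK (1.05), and 0 lower. Over all genes 450 and 1368 of 13446 were. The list median there was 0.78, and after quantile normalization it was 0.45 with 1 marker 2-fold higher. Between treated lines 6 of the 7 were 2-fold higher in RC-K8-R (median 1.96), against 7.47% of all genes, and POU2AF1 was at -0.59. The 6 became 5 after quantile normalization (median 1.54) and 4 after loess (median 1.18), where 895 and 916 of 13446 genes were 2-fold higher. CD79A, CD79B, PAX5 and POU2AF1 are on both this list and that of E protein targets. The 4 marker lists of fibroblasts, epithelial, myeloid, and T and NK cells had medians below 0 between the lines. All 4 measured T and NK cell markers were 2-fold lower between untreated lines, where 1368 of 13446 genes were. CD3D and CD3E had mean log2 ratios of -4.21 and -2.45, and 36.6% of genes with a mean below -2 differed at 2-fold there. Under quantile normalization, equal median absolute deviation and loess, 3 of the 4 markers were 2-fold lower, where 1174, 1154 and 1125 of all genes were. The epithelial median between untreated lines was -1.02, and -0.39, -0.43 and -0.36 under these settings. Whether these shifts have a part in the TCF3 values was not tested.

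Partners and cofactors of the E proteins were also read. Of 25 tissue-restricted helix-loop-helix partner genes 14 were measured, with a median of -0.22 for IL-21 in RC-K8 against -0.04 over all genes. With IL-21 in RC-K8, 1 of the 14 was 2-fold lower and 0 higher, where 1.66% and 1.44% of all genes were. That gene was TWIST2, a mesenchymal factor, at -1.07 on 1 probe with a mean log2 ratio of -2.69. Among genes with a mean below -2, 7.06% reached 2-fold in this comparison, against 2.72% of the other genes. TWIST2 also differed between the lines, at -2.34 untreated and -1.73 treated. TAL1, the partner of E proteins in blood progenitors, was 1.44 lower in treated RC-K8-R than in treated RC-K8, from 1 probe. Of the 14 partners, 1 was thus 2-fold lower between untreated lines and 2 between treated lines, with 0 higher. Over all genes 1368 of 13446 were lower between untreated lines and 10.3% between treated lines. Among 9 of 11 cofactors measured, 0 reached 2-fold with IL-21 in either line, where 3.09% (RC-K8) and 0.945% (RC-K8-R) of all genes did. The median of the cofactors for IL-21 in RC-K8 was -0.26. Between treated lines the acetyltransferase EP300 was higher (1.18, probes at 0.75 and 1.61). GATA3, a T cell factor, was lower between untreated lines (-1.01, and -0.36 at the least under the alternatives). Of the 9 cofactors, 1 was thus 2-fold higher between treated lines, against 7.47% of all genes. Between untreated lines 1 was lower, where 1368 of 13446 genes were. TWIST2 and GATA3 have means below -2, where 36.6% of genes differed at 2-fold between untreated lines.

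Ligands, receptors, SMADs and early factors linked to the induction of ID genes were read as well. The list also holds inhibitors of BMP signalling such as SMAD6, so its counts pool inducers with inhibitors. Of 22 listed genes 14 were measured, 5 above 0 and 9 below for IL-21 in RC-K8, with 0 at 2-fold there against 3.09% of all genes. For IL-21 in RC-K8-R 1 was at 2-fold, against 0.945% of all genes. That gene was the BMP receptor ACVR1 (1.21, on 1 probe with a mean log2 ratio of -4.55). Of the 14 genes 5 had a mean below -2. Among all genes below that level 8.44% reached 2-fold with IL-21 in RC-K8-R, against 0.236% of the other genes. ACVR1 was also lower in untreated RC-K8-R than in untreated RC-K8 (-1.42). The ligand gene BMP7 was lower between treated lines (-1.04, probes at -0.70 and -1.38). SMAD6, an inhibitor of BMP signalling, was lower in RC-K8-R (-1.15 untreated and -1.32 treated), as was the immediate early factor EGR1 with IL-21 (-1.31). ENG, a co-receptor for BMP ligands, was higher in treated RC-K8-R than in treated RC-K8 (1.48). Between untreated lines 2 of the 14 were 2-fold lower and 0 higher, where 1368 and 450 of 13446 genes were. Between treated lines 3 were lower and 1 higher, where 10.3% and 7.47% of all genes were. Under the alternatives these line differences fell short of 2-fold for SMAD6, at -0.72 and -0.91 at the least, for EGR1, at -0.55, for ACVR1, at -0.56, and for BMP7, at -0.61.

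Other helix-loop-helix repressors and the cell cycle inhibitors completed the lists. Of 10 measured HES, HEY and BHLHE genes 1 was 2-fold higher with IL-21 in RC-K8, against 1.44% of all genes. That gene was the Notch target HES1, at 1.54. Its probes gave 2.05, 1.54 and -0.24, and the last, which had the highest ratio, went against the others. HES1 had a mean log2 ratio of -3.72. Among genes with a mean below -2, 7.06% reached 2-fold in this comparison, against 2.72% of the other genes. HES1 was lower in treated RC-K8-R than in treated RC-K8 (-1.98), as was the related HEY2 (-1.10). HES5 was lower between untreated lines (-1.79). Of the 10 genes, 2 were thus 2-fold lower between treated lines and 1 between untreated lines, with 0 higher. Over all genes 10.3% were lower between treated lines and 1368 of 13446 between untreated lines. Of 5 measured cyclin-dependent kinase inhibitors 0 reached 2-fold with IL-21 in either line, where 3.09% (RC-K8) and 0.945% (RC-K8-R) of all genes did. Between treated lines CDKN1B, which encodes p27, was higher in RC-K8-R (1.70, probes at 1.94 and 1.46). CDKN2B, which encodes p15, was lower (-1.31, and -1.14 between untreated lines). Of the 5 inhibitors, 1 was thus 2-fold higher and 1 lower between treated lines, where 7.47% and 10.3% of all genes were. Between untreated lines 1 was lower and 0 higher, where 1368 and 450 of 13446 genes were.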

How the data were processed

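The data are 4 Agilent 2-colour arrays of 1 sample each, with sample cDNA in Cy5 and human reference RNA in Cy3, per the labels. The authors deposited 1 log ratio per probe and array, taken here to be log2 of Cy5 over Cy3; the table gives no log base, centring or direction. How the spots were scanned, background-corrected, normalized and filtered is not given in the sources used here. Under a natural log each fold would be larger and each direction the same. Array medians of the deposited values were -0.107, -0.123, -0.106 and -0.111 (RC-K8 untreated and treated, RC-K8-R untreated and treated), and blank cells numbered 4540 to 5849 per array. Direction follows from the dyes and was checked on marker genes.

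Platform annotation gave 1 symbol for 25570 probes, several for 28 and none for 5497, and 25541 matched a RefSeq gene by Entrez number. Names can be old. From each array, the median of the 23260 probes measured on all 4 arrays was subtracted, and probe differences were summarised per gene by the median (Python 3.11.15, pandas 2.3.3, statsmodels 0.14.6). Member probes with a blank were given only for the arrays they cover. The steps were tested on simulated data, in which all 4 arrays were copies of the same values with noise and no blanks. Only the comparison for IL-21 in RC-K8 was scored. That test cannot show how the steps act on arrays that differ in spread. The number of arrays limits the precision.

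The genes named were all members, genes of the further lists at 2-fold in at least 1 of 4 comparisons, and the 3 genes with the pattern nearest to each member that ranged over 1 log2 unit. CCND3 and E2F2 were named after their values were seen. The members and lists were chosen with earlier results of these data known. Another 10 settings were tried, and reading the values as a natural log was added after seeing the data. The loess had a span of 0.3 and 3 iterations.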

Additional observations from a re-analysis of the deposited data

Results flagged for a closer look

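TCF3 is given again because its IL-21 differences had opposite signs, at -1.07 in RC-K8 but 0.05 in the derived line, and differed by 1.12 on the log2 scale, past 2-fold. No direction is read from the value in RC-K8-R, which is within the SD between its probes (0.07) and was -0.03 after quantile normalization. With 1 array per group the difference was not tested.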

How the results depend on the processing

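No paired analysis was possible because each group has 1 array, and for the same reason no array could be left out. Of 35 member differences, 26 kept 1 sign under the main setting and the alternatives that give values. Of 245 such alternative values 238 stayed on the same side of 2-fold, and 0 reversed a called difference. Part of this was fixed in advance. ID1, ID2, ID3 and ID4 have values on 1 probe each, so settings that change only the choice or averaging of probes return their main value. TCF12 has 1 probe measured on all arrays, so averaging or choosing among such probes returns its main value too. Allowing probes with a blank could change only TCF12. The subtracted array medians lay between -0.123 and -0.132, so leaving out the centring could move the values only slightly. Only TCF3 had called differences, so only its values could reverse one. TCF3 ran from -1.30 to -1.07 for IL-21 in RC-K8, from 1.14 to 1.69 between treated lines and from 1.08 to 1.30 in the difference of responses. The count of members at 2-fold between untreated lines was 0 and became 1 (ID1) under quantile normalization, equal median absolute deviation and loess, against 12.2%, 12.2% and 11.4% of all genes. Between treated lines it was 1 and became 2 (ID1 and TCF3) under the first 2 of these settings and 3 (with TCF12) under loess, against 15.5%, 15.8% and 15.6% of all genes. The cause was not tested. At a 1.5-fold threshold the counts were 2 for IL-21 in RC-K8 (ID2 and TCF3), 1 between untreated lines (ID4) and 3 between treated lines (ID4, TCF3 and TCF12), against 11.8%, 34.1% and 40.6% of all genes. At 3-fold all 5 counts were 0, where from 0.342% (IL-21 in RC-K8-R) to 4.80% (treated lines) of all genes passed. Read as natural logs, a reading added after seeing the data, 3 members passed 2-fold between treated lines (ID4, TCF3 and TCF12), against 33.1% of all genes, TCF3 alone for IL-21 in RC-K8 (8.02% of all genes) and in the difference of responses (11.5%), and none elsewhere. Signs that changed were those of TCF4 in all comparisons but IL-21 in RC-K8-R, of ID1 and ID4 for IL-21 in RC-K8, of ID3 and TCF3 for IL-21 in RC-K8-R, and of ID1 in the difference of responses, none of them at 2-fold. Signal over background is not given for these probes.

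The number of genes at 2-fold over all 13446 was also read under each setting. It went from 416 to 1580 at 1.5-fold, 92 at 3-fold and 1078 with natural logs for IL-21 in RC-K8.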
